A study of Homo sapiens with 6 samples.

Results

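The spliceosome genes described here are those of the snRNP core proteins, the Sm-like LSM proteins, the SF3A and SF3B subunits and the PRPF proteins. They were chosen by name, as every row whose gene name begins with SNRP, or with LSM, SF3A, SF3B or PRPF followed by a digit. That rule found 46 of the 19089 genes in the tables, and no measured value entered it. All 46 were at 1 RPKM (reads scaled by the length of the gene model and by the size of the library) or more in each of the 6 libraries, so no member was lost to a filter on low values. Hep3B, HCCLM3 and MHCC97H are human hepatocellular carcinoma cell lines, and from each of them polyadenylated mRNA of the whole cell and polyadenylated mRNA carried by ribosomes with a nascent chain (RNC-mRNA) were sequenced. HCCLM3 and MHCC97H descend from a shared parental line and are not independent of each other. Hep3B was cultured in MEM containing 15% fetal bovine serum and sodium pyruvate, the other two lines in DMEM containing 10%, and all 3 with penicillin, streptomycin and ciprofloxacin, so differences of line and of medium cannot be told apart. Every library was prepared from 3 pooled cultures, which leaves 1 library for each line and fraction and no replicates.

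The spliceosome removes introns and is built from small nuclear ribonucleoproteins (snRNPs), each an RNA with its own proteins. The Sm proteins form a ring around the U1, U2, U4 and U5 RNAs, while a ring of LSM proteins that includes LSM8 holds the U6 RNA. With LSM1 in place of LSM8, a related ring in the cytoplasm binds mRNAs that have lost their poly(A) tails and promotes their decapping. The U1 snRNP recognises the start of an intron and the U2 snRNP, with its SF3A and SF3B complexes, the branch site. The U4/U6.U5 tri-snRNP, which carries PRPF3, PRPF4, PRPF6, PRPF8 and PRPF31, then joins before catalysis. These genes are housekeeping genes, used in liver cells as in other dividing cells.

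By these roles the 46 members comprised 8 Sm ring genes with SNRPN counted among them, 2 U1 genes, 11 U2 genes, 7 LSM ring genes, 5 other LSM genes, 6 tri-snRNP genes and 7 other PRPF genes. The libraries held 119086844 to 147788269 reads in genes, of which the members took 0.549 to 0.579%. The lowest count of any member was 964 reads, for PRPF18 in Hep3B mRNA. Counting error gave a member's log2 ratio between 2 libraries a 95% interval of ± 0.01 to ± 0.12. These intervals cover counting error only and hold no variation between cultures or preparations. The tables give the fractions as letters, read here as mRNA and RNC-mRNA without a label that states them outright, and every ratio of the fractions would change sign if they were exchanged. The 6 hepatocyte markers (ALB, AFP, APOA1, SERPINA1, HNF4A and TF) summed to 6686 and 9324 RPKM in Hep3B mRNA and RNC-mRNA but only to 20.1 to 37.0 RPKM in the libraries of HCCLM3 and MHCC97H, with 4 to 6 of the 6 at 1 RPKM or more there. The 3 epithelial markers (EPCAM, KRT8 and KRT18) summed to 1225 to 2503 RPKM, with 2 or 3 at 1 RPKM or more. Leukocyte, endothelial and fibroblast markers summed to at most 81.6, 6.97 and 11.3 RPKM, 1 of 3 markers at most of each list reaching 1 RPKM. The part of cell identity or of other cells in the results was not tested. In such bulk libraries, fewer cells with a transcript and less of it per cell cannot be told apart.

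The Sm ring genes were far from equal in level. SNRPD2 and SNRPB were among the most abundant members, while SNRPD1 in Hep3B was below the median member (32.2 RPKM in mRNA and 34.2 in RNC-mRNA). RPKM is per length of the gene model, so genes can be set side by side within a library only where model and transcript agree. That agreement was not checked. SNRPD1 and SNRPD3 had models of 1500 to 3000 bases, while SNRPB, SNRPD2, SNRPE, SNRPF and SNRPG had models under 1500. The part of model length in these levels was not tested. Of the 7 Sm ring genes other than SNRPN, SNRPD2, which encodes SmD2, was the highest in all 6 libraries, at 183, 383 and 379 RPKM in the mRNA of Hep3B, HCCLM3 and MHCC97H (the order used throughout) and at 252, 529.7 and 509 RPKM in their RNC-mRNA. SNRPB, which encodes SmB and SmB', stood at 157, 268 and 257 RPKM in mRNA and at 222, 303 and 293 RPKM in RNC-mRNA. SNRPD1 (SmD1) had 23.7, 49.4 and 45.7 RPKM in mRNA and 32.9, 73.6 and 76.1 RPKM in RNC-mRNA. SNRPD1 was thus the lowest of the ring in every mRNA library and in Hep3B RNC-mRNA, and SNRPD3 was the lowest in the RNC-mRNA of the other lines. SNRPD3 (SmD3) had 68.9, 49.9 and 47.2 RPKM in mRNA and 93.5, 66.3 and 68.5 RPKM in RNC-mRNA, so it was higher in Hep3B than in HCCLM3 and MHCC97H in both fractions. SNRPE was at 85.2, 79.7 and 75.7 RPKM in mRNA and at 102, 107 and 111 RPKM in RNC-mRNA. SNRPF was at 43.4, 90.4 and 86.2 RPKM in mRNA and at 56.1, 122 and 121 RPKM in RNC-mRNA. SNRPE, the SmE gene, was within a narrow range across the lines, whereas SNRPF, the SmF gene, was lowest in Hep3B. SNRPG (SmG) likewise was lowest in Hep3B, with 53.9, 89.1 and 85.4 RPKM in mRNA and 68.9, 127 and 128 RPKM in RNC-mRNA. Although the ring holds its proteins in equal number, the highest of these 7 genes exceeded the lowest by 7.43 to 8.28-fold within a library, and their coefficient of variation was 68.0 to 91.7%. Several short genes of the Sm and LSM families have processed pseudogenes, and no source used here says how reads shared with such copies were counted, so their exact levels are uncertain.

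**Figure D1:**
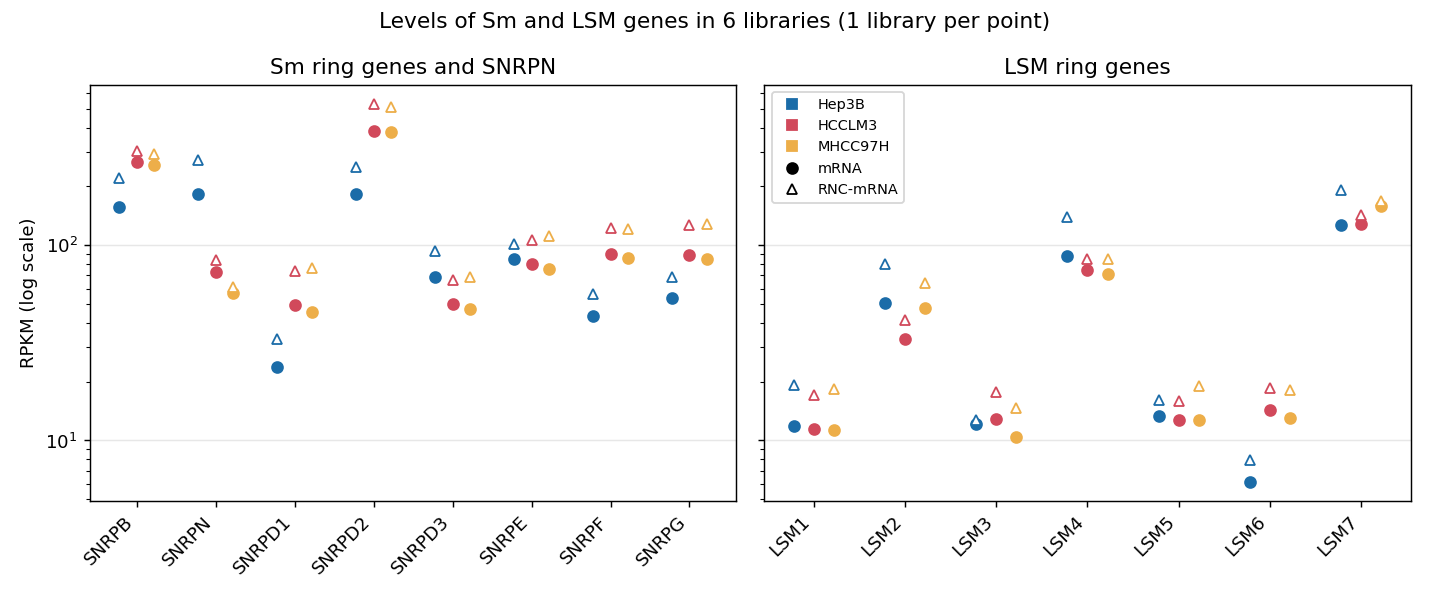
RPKM (log axis) of the Sm ring genes with SNRPN (left) and of LSM1 to LSM7 (right), 1 point for each library, coloured by line, with filled circles for mRNA and open triangles for RNC-mRNA. SNRPD2 is the highest of the Sm ring genes other than SNRPN and LSM7 the highest LSM gene in each library, and SNRPN is the gene with the widest gap between Hep3B and the other lines.

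SNRPN and SNRPB, which encode near-identical proteins that take the same place in the Sm ring, differed between the lines in opposite directions. SNRPN, an imprinted gene of chromosome 15 best known from neurons, was at 182, 72.8 and 57.0 RPKM in mRNA and at 273, 83.5 and 60.8 RPKM in RNC-mRNA. In Hep3B it was level with SNRPD2 in mRNA and above it in RNC-mRNA, and in the other lines it was far below SNRPB. In Hep3B mRNA it was 2.50 times the level in HCCLM3 and 3.19 times that in MHCC97H, while SNRPB was 1.71 and 1.64 times higher in HCCLM3 and MHCC97H mRNA than in Hep3B mRNA. The sum of both genes, a quantity chosen after their values were seen, was 339, 341 and 314 RPKM in mRNA and 495, 387 and 354 RPKM in RNC-mRNA. The mRNA sum thus lay within a narrow range, while in RNC-mRNA Hep3B was highest. SNRPN made up 53.7, 21.4 and 18.2% of the sum in mRNA and 55.2, 21.6 and 17.2% in RNC-mRNA. SNURF, an open reading frame that lies upstream of SNRPN on the same transcripts, had a row of its own with 5.95, 1.27 and 1.18 RPKM in mRNA and 1.19, 0.517 and 0.368 RPKM in RNC-mRNA. SNURF too was highest in Hep3B, but since the models overlap and the counting of shared reads is not given, the split between SNURF and SNRPN is uncertain.

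**Figure D2:**
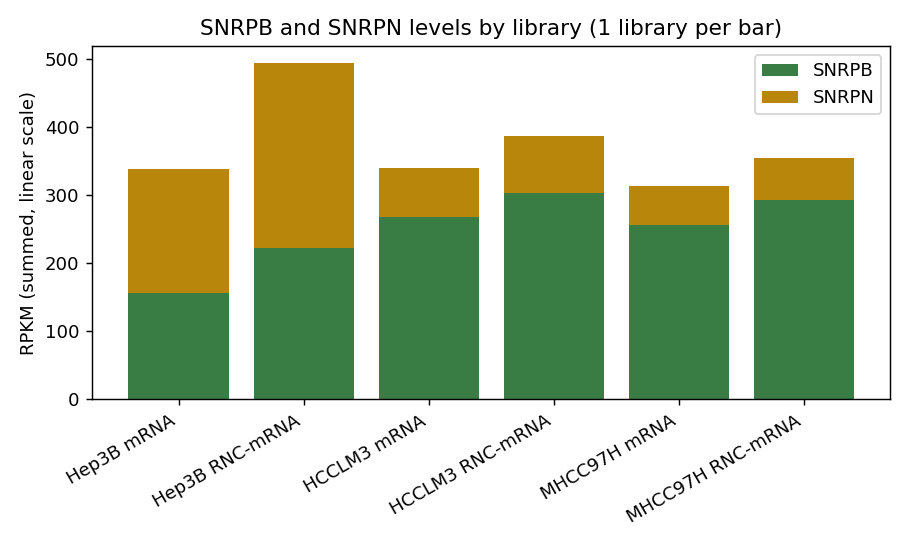
Stacked bars of the RPKM of SNRPB and SNRPN (linear axis from 0) in the 6 libraries, 1 library for each bar. SNRPN makes up 53.7 and 55.2% of the bar in the Hep3B libraries and 17.2 to 21.6% in the other 4.

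The start regions of 4 members are shown here because their levels separate the lines or stand out in the ring. They are RefSeq windows on GRCh38.p14 of 300 bases, from 250 before to 50 after a transcript start, written 5′ to 3′ on the gene's own strand. Capitals mark the letters CCGGAAG or, on the other strand, CTTCCGG, which form the core of binding motifs of ETS transcription factors. SNRPB (chr20:2470740-2471039, minus strand) and SNRPD2 (chr19:45692267-45692566, minus strand, 1 of 3 windows of that gene) are followed by SF3B4 (chr1:149927754-149928053, minus strand). Of the 3 SNRPD2 windows, only that shown here holds these letters. SNRPN is given at the start that it shares with SNURF (chr15:24954737-24955036, plus strand, 1 of 4 windows), and these letters are not in that window.
SNRPB: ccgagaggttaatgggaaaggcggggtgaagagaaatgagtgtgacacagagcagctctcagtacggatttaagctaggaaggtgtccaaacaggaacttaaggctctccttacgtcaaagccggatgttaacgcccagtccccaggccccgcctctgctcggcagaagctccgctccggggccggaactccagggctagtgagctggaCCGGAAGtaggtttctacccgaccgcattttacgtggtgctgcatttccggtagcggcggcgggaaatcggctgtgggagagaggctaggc
SNRPD2: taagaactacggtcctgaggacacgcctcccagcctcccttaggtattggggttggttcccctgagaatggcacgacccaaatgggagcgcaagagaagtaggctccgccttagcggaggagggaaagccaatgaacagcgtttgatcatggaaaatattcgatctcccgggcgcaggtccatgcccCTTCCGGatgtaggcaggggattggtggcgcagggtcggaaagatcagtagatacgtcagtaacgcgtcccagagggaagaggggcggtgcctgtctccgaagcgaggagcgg
SF3B4: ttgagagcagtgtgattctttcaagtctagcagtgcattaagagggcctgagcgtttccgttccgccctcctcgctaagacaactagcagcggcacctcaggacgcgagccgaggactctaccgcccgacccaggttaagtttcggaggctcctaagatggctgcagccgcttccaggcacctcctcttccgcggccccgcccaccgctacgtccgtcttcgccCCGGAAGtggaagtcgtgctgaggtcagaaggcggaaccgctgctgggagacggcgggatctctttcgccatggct
SNRPN: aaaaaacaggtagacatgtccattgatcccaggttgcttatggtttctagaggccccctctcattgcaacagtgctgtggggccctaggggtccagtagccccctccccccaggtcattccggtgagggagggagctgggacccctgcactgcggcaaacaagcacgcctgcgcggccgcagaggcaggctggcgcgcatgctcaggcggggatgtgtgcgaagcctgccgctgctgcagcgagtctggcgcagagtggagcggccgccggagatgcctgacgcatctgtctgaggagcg

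RefSeq held such windows for 38 of the 46 member genes, 49 windows in all. The ETS letters were in at least 1 window of 17 of the 38 genes (44.7%), against 16.5% of the 15843 genes with a window, and in 20 of the 49 windows (40.8%) against 12.8% of 22199. Among the Sm genes they were found for SNRPB, SNRPD2, SNRPE and SNRPG, and among the U2 genes for SF3A1, SF3A2, SF3A3, SF3B2, SF3B4, SF3B14, SNRPA1 and SNRPB2. Of the 6 other motifs searched on both strands, CCAAT (or ATTGG) was found for 44.7% of member genes and 42.1% of all genes, GGGCGG (or CCGCCC) for 65.8 and 64.3%, and TATAAA (or TTTATA) for 5.26 and 12.4%. The letters of the YY1 motif were found for 3 of the 38 member genes (7.89%, against 2.22% of all genes), namely LSM7, PRPF38B and SF3A1. Those of the NRF1 motif were found for 1 member gene, LSM7 (2.63 against 1.99%), and the E-box CACGTG for 1, SF3B1 (2.63 against 10.9%). A match of letters is a description and not a binding site. The median window of a member held 24 CpG dinucleotides, against 21 over all windows, and the SNRPN window shown above held 18.

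The LSM ring genes were less abundant than the Sm genes and less even. LSM7 was highest in all 6 libraries, at 128, 128 and 158 RPKM in mRNA and at 192, 142 and 168 RPKM in RNC-mRNA. LSM4 was second in every library, with 88.0, 74.9 and 70.8 RPKM in mRNA and 139, 85.5 and 84.6 RPKM in RNC-mRNA. LSM2 came next, with 50.7, 32.9 and 48.0 RPKM in mRNA and 79.9, 41.5 and 63.8 RPKM in RNC-mRNA. These 3 genes were separated from the other ring members, whose highest level in any library was 19.3 RPKM. LSM1, the subunit that directs the cytoplasmic ring to mRNA decay, was at 11.8, 11.5 and 11.4 RPKM in mRNA and at 19.3, 17.0 and 18.4 RPKM in RNC-mRNA. Its mRNA level differed little between the lines. LSM3 had 12.1, 12.9 and 10.5 RPKM in mRNA and 12.8, 17.8 and 14.6 RPKM in RNC-mRNA. LSM5 had 13.4, 12.8 and 12.8 RPKM in mRNA and 16.1, 15.9 and 19.0 RPKM in RNC-mRNA. LSM6 had 6.15, 14.3 and 13.0 RPKM in mRNA and 7.98, 18.6 and 18.1 RPKM in RNC-mRNA. LSM6 was the lowest ring gene in both Hep3B libraries, and the order among LSM1, LSM3, LSM5 and LSM6 differed from library to library. The highest of LSM1 to LSM7 exceeded the lowest by 8.95 to 24.1-fold within a library. LSM2, LSM6 and LSM7 had models under 1500 bases, and LSM1, LSM4 and LSM5 models of 1500 to 3000. The model of LSM3 had 3000 bases or more, and whether models and transcripts agree was not checked. Summed over the 7 genes, the LSM ring had 310, 288 and 324 RPKM in mRNA, against 615, 1009 and 976 RPKM for the 7 Sm genes without SNRPN. LSM8, which replaces LSM1 in the nuclear ring, was not among the rows that the rule found. RefSeq lists NAA38 as an older name of LSM8, and a row named NAA38 stood at 7.60, 9.47 and 9.02 RPKM in mRNA and at 6.25, 9.90 and 10.1 RPKM in RNC-mRNA. That row is near the level of the lower LSM ring genes, and its identity rests on this synonym.

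Both U1 genes and the U2 genes spanned a wide range of levels. SNRPA encodes a protein that binds a loop of U1 RNA, and SNRPC one that helps U1 to meet the splice site. SNRPA was lowest in Hep3B, at 45.3 and 45.9 RPKM in mRNA and RNC-mRNA, against 59.4 to 74.8 RPKM in the other lines. SNRPC lay between 76.9 and 149 RPKM. Among the U2 proteins, SNRPB2, which binds U2 RNA, was at 13.8, 27.1 and 25.5 RPKM in mRNA and at 17.1, 34.5 and 37.4 RPKM in RNC-mRNA, while SNRPA1, its partner, lay between 19.7 and 31.1 RPKM. SNRPB2 was thus lowest in Hep3B in both fractions. SF3B1, the large scaffold of SF3B that contacts the branch site and is recurrently mutated in cancers, was at 62.1, 38.9 and 39.0 RPKM in mRNA and at 25.5, 39.1 and 37.9 RPKM in RNC-mRNA. Hep3B was the highest line for SF3B1 in mRNA and the lowest in RNC-mRNA. SF3B2, the subunit SF3b145, was at 156, 83.9 and 80.6 RPKM in mRNA and at 166, 69.9 and 69.1 RPKM in RNC-mRNA. SF3B4, the subunit SF3b49, was at 47.6, 149.6 and 138 RPKM in mRNA and at 61.4, 141 and 137 RPKM in RNC-mRNA. SF3B2 was the most abundant SF3B subunit in Hep3B and SF3B4 the most abundant in HCCLM3 and MHCC97H. SF3B14, the p14 subunit that touches the branch adenosine (SF3B6 in RefSeq), was at 31.4, 17.6 and 18.8 RPKM in mRNA and at 49.9, 26.0 and 29.5 RPKM in RNC-mRNA. SF3B14 was highest in Hep3B in both fractions. SF3A2, the SF3a66 subunit, was at 85.5, 66.2 and 90.7 RPKM in mRNA but at 120.2, 47.6 and 59.4 RPKM in RNC-mRNA, with Hep3B highest in the latter only. The remaining U2 genes, SF3A1, SF3A3, SF3B3 and SF3B5, had 21.6 to 33.3, 19.6 to 23.0, 16.8 to 34.3 and 83.6 to 154 RPKM.

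Among the tri-snRNP genes, PRPF8 encodes the protein at the catalytic centre of the spliceosome. Its mRNA was at 60.6, 58.2 and 59.0 RPKM and its RNC-mRNA at 26.6, 39.2 and 38.4 RPKM. The mRNA levels of PRPF8 were close to each other, and in every line the RNC-mRNA level was lower. PRPF3, a U4/U6 protein, was at 19.5, 42.9 and 36.8 RPKM in mRNA and at 11.2, 36.2 and 36.1 RPKM in RNC-mRNA. Hep3B was the lowest line for PRPF3 in both fractions. PRPF6, the bridge between the U5 and U4/U6 particles, lay between 41.1 and 59.6 RPKM, PRPF31 between 47.1 and 66.4, PRPF4 between 13.5 and 27.2, and PRPF18, which acts in the last catalytic step, between 4.23 and 7.94 RPKM.

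The other PRPF genes were mostly low. PRPF19, the ubiquitin ligase of the complex that activates the spliceosome, was the exception, at 107 to 135 RPKM. PRPF4B, a kinase of the tri-snRNP (PRP4K in RefSeq), was at 13.7, 5.16 and 7.43 RPKM in mRNA and at 5.65, 4.62 and 6.47 RPKM in RNC-mRNA. PRPF39, whose yeast counterpart is a U1 protein, was at 8.54, 3.13 and 3.53 RPKM in mRNA and at 4.26, 3.83 and 4.22 RPKM in RNC-mRNA. Both were highest in Hep3B in mRNA, and neither was in RNC-mRNA by a comparable margin. PRPF40B, related to another yeast U1 protein, was at 5.13, 4.77 and 5.44 RPKM in mRNA and at 2.95, 4.46 and 3.53 RPKM in RNC-mRNA. PRPF38A and PRPF38B lay between 6.26 and 11.5 RPKM. Of the LSM proteins outside the ring, LSM10 and LSM11 belong to the U7 snRNP, which processes histone mRNAs. LSM10 was at 12.8, 27.4 and 25.7 RPKM in mRNA and at 17.0, 32.8 and 29.4 RPKM in RNC-mRNA, and LSM11 was the lowest member in every library, at 1.30 to 1.69 RPKM. LSM12 was at 32.5, 30.5 and 31.0 RPKM in mRNA and at 42.0, 47.5 and 47.5 RPKM in RNC-mRNA. LSM12 mRNA was level across the lines, and its RNC-mRNA was higher in each. LSM14A and LSM14B, proteins of cytoplasmic granules that hold repressed mRNA, lay between 23.8 and 38.4 RPKM.

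The first comparison set each member's level in RNC-mRNA against its level in mRNA. Each RPKM is scaled to its own library, so this ratio is relative to the other genes. A log2 ratio of 0 thus marks no fixed share of ribosome-bound transcript. The small ring proteins stood above the large scaffold proteins. All 8 Sm genes and LSM1 to LSM7 of the LSM ring had a log2 ratio above 0 in each of the 3 lines, as did 30.5% of all genes. The row NAA38, whose identity as LSM8 rests on a synonym, is not among them. Its log2 ratios were -0.28, 0.06 and 0.15 in Hep3B, HCCLM3 and MHCC97H. The lowest LSM ring ratios in HCCLM3 and MHCC97H, 0.15 and 0.09, were below the medians of all genes there, 0.17 and 0.16. The lowest Sm ratio in MHCC97H, 0.09, was also below that median. PRPF8, PRPF4B, PRPF40B, SF3B1 and PRPF3 had the lowest means of all members. None of the 46 members passed an adjusted p of 0.05 in edgeR's quasi-likelihood test over the 3 lines, higher or lower, with Benjamini-Hochberg adjustment over 11905 genes. Of all genes tested, 0.0672% were called higher and 2.65% lower. At an unadjusted p under 0.05 in edgeR, 21 members passed, 16 higher and 5 lower, which is 45.7% of the members against 28.1% of all genes (12.9% higher and 15.2% lower). In the quasi-likelihood fit the median log2 ratio was 0.22 over the members and 0.04 over all genes tested. A ratio above 0 in all 3 lines was found for 25 members (54.3%, against 30.5% of genes) and below 0 in all 3 for 7 members (15.2%, against 22.9%). DESeq2, run on the same counts, called LSM1, LSM12, SF3B14, SNRPD1 and SNRPG higher and PRPF8 lower at an adjusted p under 0.05, where it called 5.56% of all genes higher and 10.9% lower. Without a filter on low values, edgeR also called 5 members higher and 1 lower, against 2.26 and 7.56% of all genes.

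LSM1 had the highest mean log2 ratio of the members, at 0.70, 0.56 and 0.69 in Hep3B, HCCLM3 and MHCC97H (mean 0.65 ± 0.08, SD over 3 lines), and edgeR's adjusted p was 0.0897. SF3B14 followed with 0.67, 0.56 and 0.65 (0.63 ± 0.05) and an edgeR adjusted p of 0.0924. SNRPD1 had 0.47, 0.57 and 0.73 (0.59 ± 0.13), with an adjusted p of 0.0735 in edgeR. These 3 ratios were above 0 in 3 of 3 lines, with means larger than their SD. That SD is not an error of independent replicates, since HCCLM3 and MHCC97H are related, and these genes were picked as the highest. The median of all genes was -0.03, 0.17 and 0.16 in Hep3B, HCCLM3 and MHCC97H. LSM12 had 0.37, 0.64 and 0.61 (0.54 ± 0.15), with an adjusted p of 0.0762 in edgeR. SNRPG had 0.35, 0.51 and 0.59 (0.48 ± 0.12), with an adjusted p of 0.0893 in edgeR. The other Sm genes ranged from 0.09 for SNRPN in MHCC97H to 0.59 for SNRPN in Hep3B. SNRPB and SNRPN had their highest ratios in Hep3B (0.50 and 0.59, against 0.18 and 0.20 in HCCLM3 and 0.19 and 0.09 in MHCC97H), as did LSM2, LSM4 and LSM7, whereas LSM3 and LSM5 had their lowest there. SNURF, which shares transcripts with SNRPN, was called lower in RNC-mRNA (log2 -1.81 ± 0.21, SE, edgeR adjusted p = 0.0410), with ratios of -2.24, -1.15 and -1.45, while SNRPN was not called (0.25 ± 0.19, SE, edgeR adjusted p = 0.436). SNURF reached the mean of 1 RPKM asked for in that test only through Hep3B, where its mRNA was at 5.95 RPKM. Its RNC-mRNA in HCCLM3 and MHCC97H, at 0.517 and 0.368 RPKM, fell short of the 1 RPKM asked of both fractions of a line.

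At the other end, PRPF8 had log2 ratios of -1.19, -0.57 and -0.62 (mean -0.79 ± 0.34, SD over 3 lines). Its edgeR estimate was -0.83 ± 0.13 (SE) with an adjusted p of 0.0614, the lowest adjusted p of any member. PRPF8 was below 0 in 3 of 3 lines, and most strongly in Hep3B. PRPF4B had -1.26, -0.16 and -0.20 (mean -0.54 ± 0.63, edgeR adjusted p = 0.174). PRPF40B had -0.78, -0.09 and -0.61 (mean -0.49 ± 0.36, edgeR adjusted p = 0.128). SF3B1 had -1.28, 0.01 and -0.04 (mean -0.44 ± 0.73, edgeR adjusted p = 0.289). For PRPF4B and SF3B1 the low mean came from Hep3B, and the spread over the lines was larger than the mean. PRPF3, with -0.79, -0.24 and -0.03 (mean -0.35 ± 0.39, edgeR adjusted p = 0.164), was likewise lowest in Hep3B. SF3B3, a large SF3B subunit, was below 0 in 3 of 3 lines, at -0.46, -0.22 and -0.25 (edgeR adjusted p = 0.125).

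The calls over the lines depended on Hep3B. With its 2 libraries left out, edgeR called 21 members higher and 15 lower, 36 of 46, but it then called 35.2% of all genes higher and 33.6% lower, a fit of the remaining related lines alone. Leaving out HCCLM3 or MHCC97H gave no call of a member, with 4 and 2 members at an unadjusted p under 0.05.

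**Figure D3:**
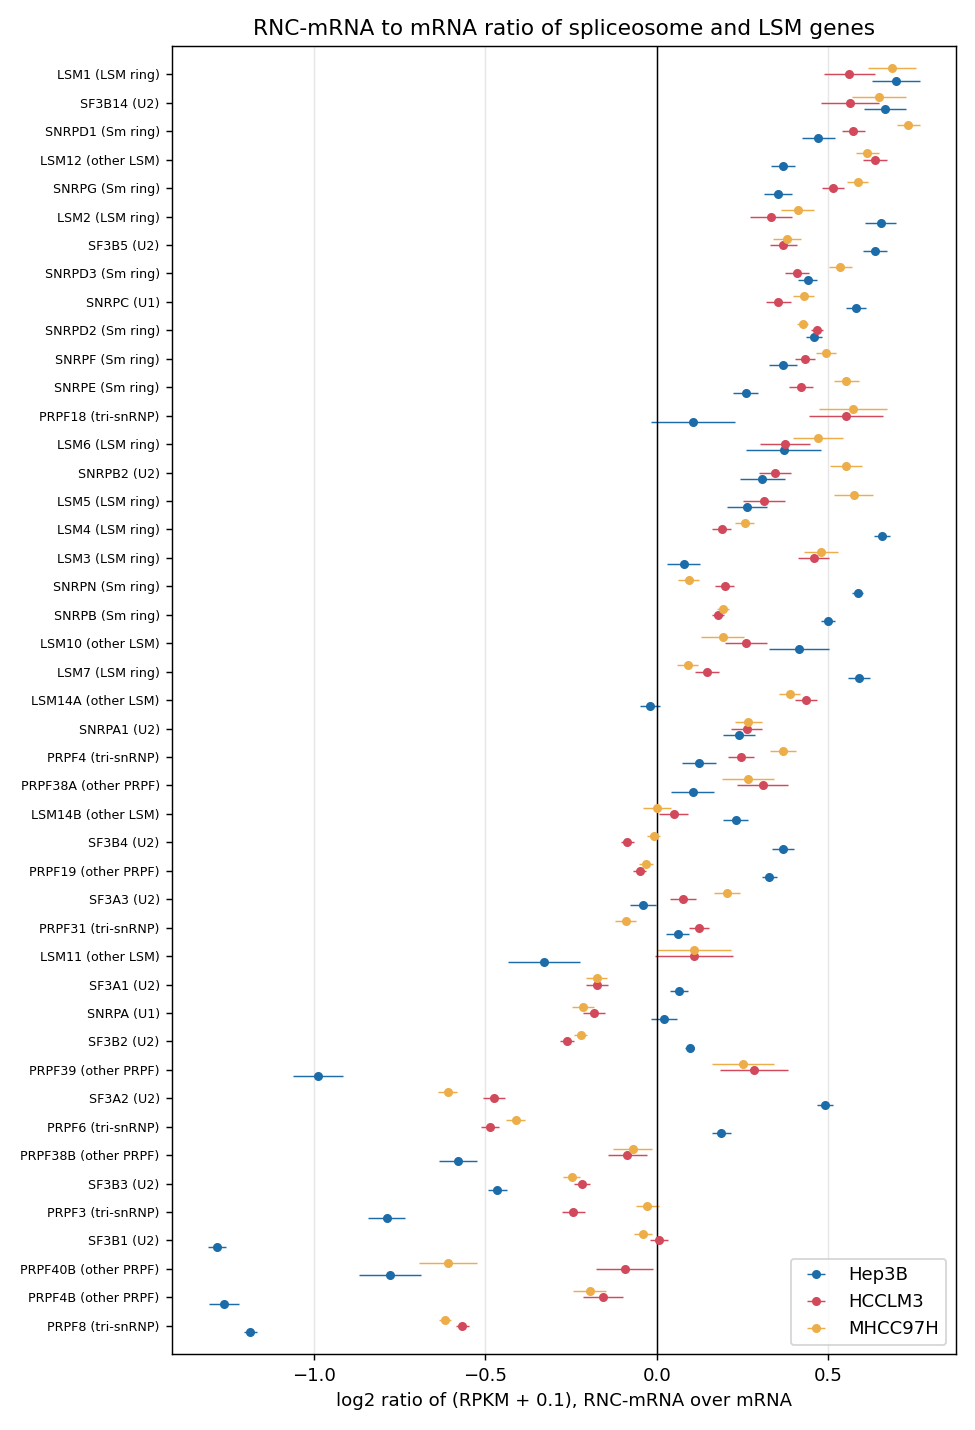
log2 ratio of (RPKM + 0.1) in RNC-mRNA over mRNA for 45 of the members, sorted by the mean of the 3 lines, with points coloured by line and bars for the 95% counting interval. LSM1 and SF3B14 are at the top with means of 0.65 and 0.63, and the points of Hep3B reach -1.28 for SF3B1 at the bottom, far from those of the other lines.

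Within single lines the members' fractions differed less than 2-fold, with 3 exceptions in Hep3B. There SF3B1, PRPF4B and PRPF8 were at least 2-fold lower in RNC-mRNA and no member was 2-fold higher, where 7.73% of all genes were lower and 1.89% higher by that rule. In HCCLM3 and MHCC97H no member was past 2-fold either way, against 3.31 and 3.15% of all genes. These are comparisons of single libraries, with no replicate check and no test. The median log2 ratio of the members was 0.25, 0.22 and 0.23 in Hep3B, HCCLM3 and MHCC97H, and that of all genes -0.03, 0.17 and 0.16. The roles differed in these medians, with 0.45, 0.43 and 0.51 for the Sm genes, 0.59, 0.33 and 0.47 for the LSM ring, 0.24, 0.01 and -0.01 for the U2 genes, 0.08, -0.06 and -0.06 for the tri-snRNP genes and -0.76, -0.05 and -0.03 for the other PRPF genes. Each library was also rescaled by its median ratio to the mean of the 6 libraries. The members' medians then became 0.35, 0.07 and 0.08, against 0.06, 0.02 and 0.02 for all genes.

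6 members had ratios of opposite sign in Hep3B and in both other lines, with counting intervals clear of 0 both as deposited and rescaled to the median ratio. That rescaling moved ratios up in Hep3B and down in the other lines. It therefore could not undo a pattern of above 0 in Hep3B and below 0 elsewhere, which all of them but PRPF39 had. The pattern was not examined with the upper quartile. The share of all genes with this pattern was not counted. Ratios of the same sign in all 3 lines were found for 32 of the 46 members and for 6363 of the 11905 genes tested. The median of all genes itself was -0.03 in Hep3B and 0.17 and 0.16 in HCCLM3 and MHCC97H. SF3A2 was higher in RNC-mRNA than in mRNA in Hep3B (log2 0.49) and lower in HCCLM3 and MHCC97H (-0.47 and -0.61). PRPF6 had 0.19 in Hep3B and -0.49 and -0.41 in the others. SF3B2 had 0.10 against -0.26 and -0.22, and PRPF19 had 0.33 against -0.05 and -0.03. PRPF39 went the other way, at -0.99 in Hep3B against 0.28 and 0.25. SF3A1 completed the group with 0.06 against -0.17 and -0.17. No test of these differences between lines was possible with 1 library for each line and fraction.

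The ratio was lower with greater length of the gene model, a property that the choice of members did not use. Across the 46 members, the Spearman correlation of length with the mean log2 ratio was -0.76, against -0.32 across the 11905 genes tested. In Hep3B it was -0.82 for the members and -0.51 for all genes, in HCCLM3 -0.56 and -0.03, and in MHCC97H -0.54 and -0.08. These describe genes that share their libraries, and genes are not independent replicates. All 12 members with models under 1500 bases, 8 of them Sm or LSM ring genes, had ratios above 0 in every line, with medians of 0.48, 0.37 and 0.43, against 0.42, 0.22 and 0.24 for all genes of that length. Of all genes of that length, 75.8, 72.7 and 72.6% were above 0. The 18 members of 1500 to 3000 bases had medians of 0.32, 0.23 and 0.26, against 0.19, 0.13 and 0.14 for all genes of that length. The 16 members of 3000 bases or more, which include PRPF8 with 7445 and SF3B1 with 4336 bases, had medians of -0.40, -0.05 and -0.05, against -0.31, 0.12 and 0.11 for all genes of that length. In that class 5, 7 and 6 of the 16 members were above 0 (31.2, 43.8 and 37.5%), against 27.1, 60.9 and 57.8% of all genes. The medians of the short and middle classes of members were thus above those of all genes in each line, and the median of the long members was below. The part of length in the ratios of single members was not tested.

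**Figure D4:**
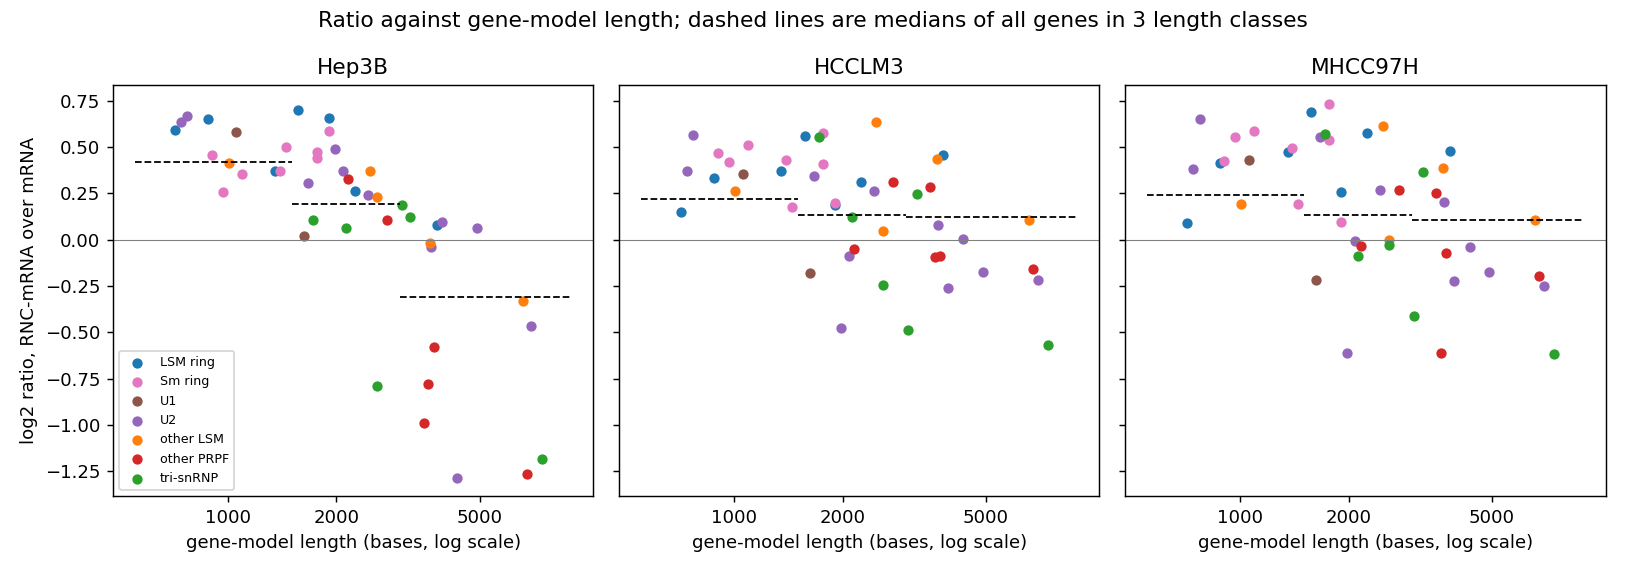
log2 ratio of RNC-mRNA over mRNA against gene-model length in bases (log axis) for 45 of the members in Hep3B, HCCLM3 and MHCC97H, coloured by role, with dashed lines at the medians of all genes in 3 length classes. In Hep3B both the points and the dashed lines descend with length, while in the other 2 lines the dashed lines are nearly flat and the members still descend.

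The second comparison set the lines against each other. In mRNA, 7 members were at least 2-fold higher in HCCLM3 than in Hep3B and 3 were lower, against 18.7 and 21.3% of all genes, and for MHCC97H against Hep3B 4 were higher and 2 lower (18.0 and 19.6% of all genes). In RNC-mRNA, 7 were higher and 3 lower in each line, against 25.5 and 17.7% of all genes for HCCLM3 and 25.2 and 17.4% for MHCC97H. Between HCCLM3 and MHCC97H no member differed 2-fold in mRNA or RNC-mRNA, where 2.56 and 2.95% of all genes did. In each of these comparisons the members' share past 2-fold was below that of all genes in the same direction. Past 4-fold there was 1 member, SNRPN in MHCC97H RNC-mRNA, where 20.6% of all genes differed so from Hep3B. None was 4-fold apart in HCCLM3 RNC-mRNA (20.8% of genes), in either line's mRNA (18.4 and 17.6%), between HCCLM3 and MHCC97H (0.555 and 0.694%) or between the fractions of Hep3B (1.04%). Both comparisons against Hep3B share its libraries, and no replicates exist to test them.

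SF3B4 was the member with the largest ratio above Hep3B in mRNA, 3.14-fold in HCCLM3 and 2.90-fold in MHCC97H, and its log2 ratios in RNC-mRNA were 1.20 and 1.16. SNRPD2 was 2.09 and 2.07-fold higher in mRNA, with log2 ratios of 1.07 and 1.01 in RNC-mRNA. LSM6 was 2.31 and 2.10-fold higher in mRNA, with log2 ratios of 1.21 and 1.17 in RNC-mRNA. These 3 genes were past 2-fold in both fractions and both lines. PRPF3 had log2 ratios of 1.14 and 0.92 in mRNA, and in RNC-mRNA 1.68 and 1.68, SNRPF had 1.06 and 0.99 in mRNA, and in RNC-mRNA 1.12 and 1.11, and SNRPD1 had 1.06 and 0.94 in mRNA, and in RNC-mRNA 1.16 and 1.21. All 3 were past 2-fold in each library pair but MHCC97H mRNA. LSM10 was past 2-fold in mRNA only (1.10 and 1.01, against 0.94 and 0.78 in RNC-mRNA), and SNRPB2 in RNC-mRNA only (0.97 and 0.88 in mRNA, 1.01 and 1.13 in RNC-mRNA).

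SNRPN was the one member past 2-fold below Hep3B in both fractions and both lines, with log2 ratios of -1.32 and -1.67 in mRNA, and in RNC-mRNA -1.71 and -2.17 for HCCLM3 and MHCC97H. SF3B2 had -0.89 and -0.95 in mRNA, and in RNC-mRNA -1.25 and -1.27, and SF3A2 had -0.37 and 0.09 in mRNA, and in RNC-mRNA -1.33 and -1.02. Both subunits passed the 2-fold rule in RNC-mRNA only. PRPF39 (-1.42 and -1.25) and PRPF4B (-1.39 and -0.88) were lower in mRNA, while their RNC-mRNA ratios lay between -0.29 and 0.19. In RNC-mRNA the median of all genes was itself shifted by 0.25 and 0.26 for HCCLM3 and MHCC97H over Hep3B. Rescaled to the median ratio, PRPF3 was the 1 member still 2-fold higher in each line's RNC-mRNA, and 5 members were lower in HCCLM3. The rescaled share of all genes past 2-fold is not set beside these counts.

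**Figure D5:**
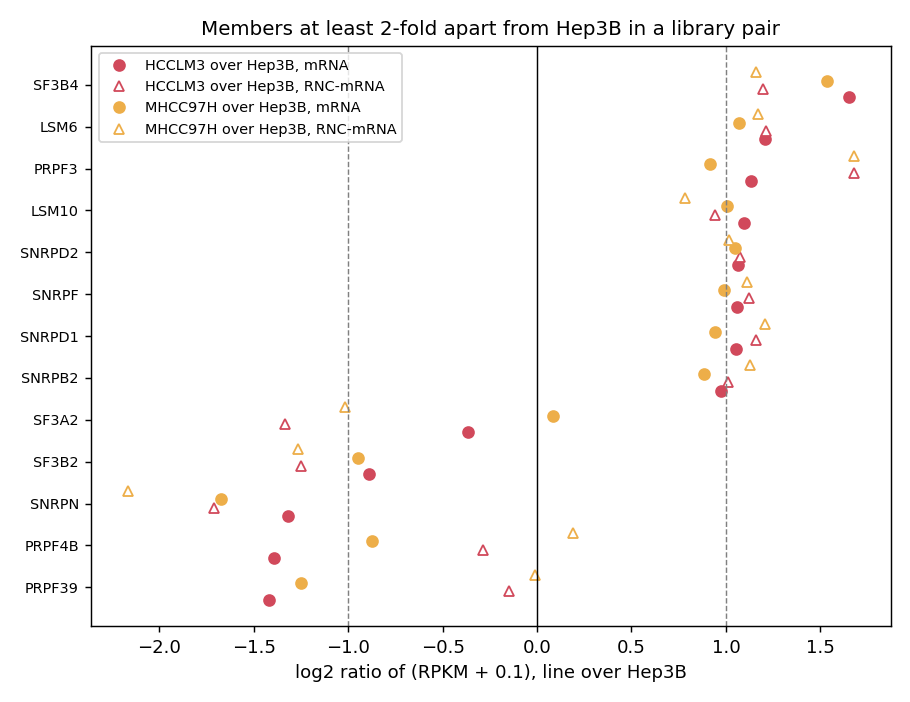
log2 ratio of (RPKM + 0.1) over Hep3B for the 13 members at least 2-fold apart from Hep3B in a library pair, with HCCLM3 and MHCC97H in different colours, filled circles for mRNA and open triangles for RNC-mRNA, and dashed lines at 2-fold. The lowest point is that of SNRPN at -2.17, SF3B4 reaches 1.65 in mRNA and PRPF3 1.68 in RNC-mRNA, and the points of HCCLM3 and MHCC97H lie close together for most genes.

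Other genes of the pathway were followed in 3 lists. Of 39 tested genes of other spliceosome proteins, edgeR called none higher and 1 lower in RNC-mRNA over the lines, where it called 0.0672 and 2.65% of all genes. The median log2 ratio was 0.06 against 0.04 for all genes. At an unadjusted p under 0.05 in edgeR there were 14 (35.9%, against 28.1% of all genes). DESeq2 called 4 higher and 2 lower, against 5.56 and 10.9% of all genes. The gene called lower was SNRNP70, which encodes the U1-70K protein of the U1 snRNP. It was at 133, 194 and 188 RPKM in mRNA and at 67.9, 116 and 102 RPKM in RNC-mRNA, so that every RNC-mRNA library was below its mRNA library. Its edgeR estimate was -0.90 ± 0.12 (SE, adjusted p = 0.0452), and the call was lost without HCCLM3 (edgeR adjusted p = 0.307) and without MHCC97H (edgeR adjusted p = 0.314). Of the other U1 genes, SNRPC had log2 ratios of 0.58, 0.35 and 0.43 and SNRPA of 0.02, -0.18 and -0.22, and the difference between the 3 genes was not tested.

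Of 19 tested genes of snRNP assembly and transport, which load Sm rings onto the RNAs through the SMN complex, edgeR called none, with a median log2 ratio of 0.15. At an unadjusted p under 0.05 in edgeR there were 5 (26.3%, against 28.1% of all genes). DESeq2 called 1 higher, where it called 5.56% of all genes higher. SMN1 and SMN2 of this list are near-identical copies whose reads cannot be split with certainty. Of 9 genes of mRNA decay that act with the cytoplasmic LSM ring, edgeR called EDC4, a scaffold of the decapping complex, lower in RNC-mRNA and none higher. EDC4 was at 17.5, 18.6 and 17.0 RPKM in mRNA and at 9.81, 10.6 and 9.33 RPKM in RNC-mRNA (log2 -0.88 ± 0.12, SE, edgeR adjusted p = 0.0467). That call too was lost without HCCLM3 (edgeR adjusted p = 0.244), without MHCC97H (edgeR adjusted p = 0.211) and with relative log expression size factors (edgeR adjusted p = 0.0507). Of this list, 3 genes were at an unadjusted p under 0.05 in edgeR (33.3%, against 28.1% of all genes). DESeq2 called 1 lower. Of all genes, edgeR called 2.65% lower and DESeq2 10.9%. The list's median was 0.04. LSM1, the ring member specific to that pathway, had a ratio above 0 in each line, as given above.

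Between the lines, the mRNA of 3 of 40 other spliceosome genes was at least 2-fold above Hep3B in HCCLM3 and that of 1 below, and in MHCC97H 3 were above and none below, where 18.7 and 21.3% of all genes were above and below in HCCLM3 and 18.0 and 19.6% in MHCC97H. TXNL4A, a small U5 protein, was at 39.7, 112 and 106 RPKM in mRNA, and BUD31, a protein of the activated spliceosome, at 24.5, 82.6 and 78.5 RPKM. Both were lowest in Hep3B, as SF3B4 and SNRPD2 were. Of 19 assembly genes, 4 were 2-fold above Hep3B and 2 below in HCCLM3 mRNA, with 3 above and none below in MHCC97H mRNA, so the counts above were near the shares of all genes just given. TGS1, the enzyme that trimethylates the snRNA cap, was at 3.88, 11.2 and 9.96 RPKM. Of the 9 mRNA decay genes, none was above and 2 below in HCCLM3, with 1 above and 2 below in MHCC97H.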

How the data were processed

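Polyadenylated mRNA and RNC-mRNA of 3 lines were sequenced, per the labels. For each library the authors deposited a whole-number read count and an RPKM value for each gene. The submitters' processing notes name edgeR and hg19. The sources used here name no aligner or counting program and do not say how strand or shared reads were treated.

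The 46 genes, the lists, the 2-fold rule and the tests were chosen with earlier results of these data known. Ratios were log2 of (RPKM + 0.1), which understates changes of low genes. The rule of size asked for 2-fold, and for 1 RPKM in the higher of 2 lines or in both fractions of a line. No test was run on single library pairs. The fractions were tested over the lines on the deposited counts with edgeR 4.0.16 in R 4.3.3 (quasi-likelihood test, TMM scaling, line as a block, Benjamini-Hochberg adjustment) in the 11905 genes whose mean over the libraries reached 1 RPKM. The line pairs the fractions, since both come from the same cells, and the deviations of paired libraries correlated at 0.944, 0.937 and 0.942 across genes. The p-values measure only the spread between these libraries. Alternatives were DESeq2 1.42.0, no block, other scalings, filters and pseudocounts, a 4-fold rule, and each line left out. pandas 2.3.3 and SciPy 1.17.1 were used for descriptions.

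Values in all 6 libraries were given for the Sm and LSM rings, SNRPN, the 5 highest and 5 lowest mean ratios and the members past 2-fold between lines, up to 5 each way. Called genes of the lists were named, up to 3 each way. SNURF, NAA38, the genes of the line paragraphs beyond that rule and those with opposite signs were chosen after their values were seen. All 46 names matched RefSeq, which gave current symbols and start regions on GRCh38.p14. As the tables rest on hg19, no coordinates of theirs were used. The values of 1 member, which stays in the counts and medians, are not reported here.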

Additional observations from a re-analysis of the deposited data

Results flagged for a closer look

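6 members had ratios of RNC-mRNA to mRNA of opposite sign in Hep3B and in both HCCLM3 and MHCC97H, with counting intervals that excluded a change of sign. That is what marked them out. The share of all genes with this pattern was not counted, so whether it is more frequent among the members cannot be said. Ratios kept the same sign in every line for 32 of the 46 members and for 6363 of the 11905 genes tested. The difference of the log2 ratios, HCCLM3 minus Hep3B and then MHCC97H minus Hep3B, was -0.97 and -1.10 for SF3A2, -0.67 and -0.60 for PRPF6, -0.38 and -0.36 for PRPF19, -0.36 and -0.32 for SF3B2, and -0.24 and -0.24 for SF3A1. For PRPF39 it was 1.27 and 1.24. The difference was not tested for any of them, since each line and fraction had 1 library, and HCCLM3 and MHCC97H are related lines compared with the same Hep3B libraries.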

How the results depend on the processing

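No called result changed its direction under the alternatives that were run, but the members' median in RNC-mRNA over Hep3B (0.14 for HCCLM3 and 0.18 for MHCC97H as deposited) changed sign when rescaled to the median ratio. With no replicate block, that is without the line as pairing, edgeR called no gene of the table in either direction (0 higher, 0 lower), 4 members were at an unadjusted p under 0.05, and SNRNP70, EDC4 and SNURF lost their calls (adjusted p of 0.434, 0.232 and 0.778). Over all alternatives, DESeq2 included, their adjusted p ranged from 5.08e-09 to 0.434, from 1.93e-09 to 0.244 and from 1.10e-08 to 0.778. DESeq2 called 5 members higher and 1 lower, and 662 and 1300 of all genes. With no filter on low values edgeR called 5 and 1 members and 431 and 1443 genes. Leaving out 1 line at a time, edgeR called 0 to 21 members higher and 0 to 15 lower, 2 to 36 members were at an unadjusted p under 0.05, and 3 to 4187 genes were called higher and 119 to 4005 lower. The highest counts came without Hep3B.

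Rescaled to the median ratio, the members' median log2 ratio of RNC-mRNA to mRNA was 0.35 in Hep3B, 0.0739 in HCCLM3 and 0.0824 in MHCC97H, and that of RNC-mRNA over Hep3B was -0.10 for HCCLM3 and -0.0682 for MHCC97H. Rescaled to the upper quartile, the ratio was 0.10 in HCCLM3 and 0.14 in MHCC97H, and the medians over Hep3B were -0.11 and -0.0857 in mRNA, with 0.0109 and 0.0684 in RNC-mRNA. At 5 RPKM or more, the median for HCCLM3 over Hep3B in RNC-mRNA was 0.17. Members 2-fold higher in MHCC97H than in Hep3B mRNA numbered 2 with a pseudocount of 1 and with the upper quartile. In RNC-mRNA over Hep3B, the median ratio gave 1 higher and 5 lower members for HCCLM3 and 1 higher for MHCC97H, and the upper quartile 4 higher and 5 lower for HCCLM3. The shares of all genes past 2-fold under these settings are not set beside these counts. Whether the members moved differently from all genes cannot be read from them. By a 4-fold rule, 0 members passed in Hep3B between the fractions and 0 between lines, except 1 (SNRPN) lower in MHCC97H than in Hep3B RNC-mRNA. The correlation with length was -0.559 and -0.545 in HCCLM3 and MHCC97H alone.

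Counting half-widths were 0.01 to 0.12 on the log2 scale. With 1 library for each line and fraction, variation between cultures and preparations was not measured, so differences between lines carry no biological error.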

Other observations

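SF3B4 and PRPF3, both higher in HCCLM3 and MHCC97H than in Hep3B, lie near each other on chromosome 1, with 11 protein-coding genes between them in RefSeq, a set looked up after the values of both were seen. Of these, 8 were in the fit (MTMR11, OTUD7B, VPS45, PLEKHO1, ANP32E, APH1A, C1orf54 and MRPS21). Their median log2 ratio over Hep3B was 0.51 for HCCLM3 and 0.50 for MHCC97H in mRNA, with 0.80 and 0.79 in RNC-mRNA. In mRNA 1 of the 8 was at least 2-fold higher in each line, in RNC-mRNA 4 of the 8 were, and none was 2-fold lower in either fraction. By the same rule, 18.7% of all genes were higher in HCCLM3 mRNA and 18.0% in MHCC97H mRNA. For RNC-mRNA these shares were 25.5% in HCCLM3 and 25.2% in MHCC97H. Between 17.4 and 21.3% of all genes were lower, depending on line and fraction. Whether the 8 genes differ from all genes was not tested. The medians of all genes were -0.03 and -0.01 in mRNA, and in RNC-mRNA 0.25 and 0.26.

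PPIL1, a peptidyl-prolyl isomerase of the activated spliceosome, went the other way among the other spliceosome genes, with 29.2, 12.6 and 17.4 RPKM in the mRNA of Hep3B, HCCLM3 and MHCC97H and 41.4, 20.2 and 28.4 RPKM in their RNC-mRNA.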
